A study of Mus musculus with 15 samples.

Results

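Laminins, nidogens and perlecan are the non-collagen core of the basement membrane, the thin matrix sheet beneath epithelia and around vessels, muscle cells and ovarian follicles. The group was taken by name as 10 genes, all of which were listed among the 24656 genes of the deposited table, and all 10 passed the filter on low values. They were 4 laminin alpha chains (Lama1, Lama2, Lama4, Lama5), 2 beta chains (Lamb1, Lamb2), 1 gamma chain (Lamc1), both nidogens (Nid1, Nid2) and perlecan (Hspg2). A laminin molecule is a trimer of 1 alpha, 1 beta and 1 gamma chain that assembles into a network on the cell surface. Nidogens link that network to type IV collagen, and perlecan, a proteoglycan carrying heparan sulfate chains, joins the same sheet and holds growth factors. In the ovary such a sheet, the follicular basal lamina, separates the granulosa cells of each follicle from the theca and its vessels, and others surround capillaries and smooth muscle.

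The samples were whole ovaries from the UM-HET3 stock, genetically mixed mice derived from several inbred strains, and the labels name no transgene or deletion. Of 15 libraries, 5 came from untreated mice 6 months old, 5 from untreated mice 12 months old, and 5 from mice 12 months old that had received canagliflozin from 6 months of age. Canagliflozin inhibits SGLT2, a glucose transporter of the kidney, and its dose and route are not given in the labels. Per the labels 1 ovary per mouse was used, which makes each library a separate animal, and depth recovered from the values was 8472205 to 13629491 reads. Levels below are normalised reads, that is, a gene's reads scaled by the size factor of its library, with mean ± SD over the 5 ovaries of a group. Each log2 change was taken from log2(value + 1). A gene was called when its limma p, adjusted by Benjamini-Hochberg over 17569 genes, was under 0.05. Follicle, theca and oocyte markers were present in every group, and none of the 11 cell type lists used had a gene at 0 in all libraries of a group. The 15 genes of the mitochondrial genome took 2.72 to 3.19% of the normalised reads at 6 months, 3.70 to 4.46% at 12 months and 4.84 to 9.37% with canagliflozin, and the part of this in the results below was not tested. The summed level of 8 oocyte markers, for example, ran from 1493 to 2454 at 6 months, 1498 to 2409 at 12 months and 984 to 1971 with canagliflozin.

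The comparison of untreated ovaries at 12 and 6 months measured the change of these genes with age. The beta chains, the gamma chain, both nidogens and perlecan fell, to between 0.523 and 0.696 times the 6-month level, and none of the 4 alpha chains was called. Thus 6 of 10 members fell and none rose, while 7.01% of all genes tested were called lower at 12 months and 5.4% higher. All 10 had a negative log2 change, as did 49.5% of all genes. The median log2 fold change over the 10 was -0.56, beside 0.0039 over all genes tested. In each of the 6 the 12-month ovaries lay entirely below the 6-month ones, a separation seen in this direction for 8.07% of genes. RNA is not counted per cell in whole ovaries, so fewer cells of a type and less RNA per cell cannot be told apart.

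Perlecan gave the smallest p of the group. Hspg2 (ENSMUSG00000028763) measured 11899, 9115, 9829, 10548 and 9790.3 in the 5 ovaries at 6 months. At 12 months it measured 6102, 4972, 4832, 5881 and 6873. The lowest 6-month ovary was thus above the highest 12-month one, and the mean went from 10236 ± 1058 to 5732 ± 844 (0.557-fold, log2 change -0.84 with SE 0.12, limma adjusted p = 0.000462).

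Both nidogens, which bridge laminin and type IV collagen, were lower in the older ovaries. Nid2 (ENSMUSG00000021806) had values of 1448, 1475, 1373, 1348 and 1340.4 at 6 months and of 665, 776, 528, 869.6 and 874 at 12 months. The 6-month ovaries were tightly grouped, and each was above every older ovary (0.523-fold, log2 change -0.93 with SE 0.17, limma adjusted p = 0.00294). Nid1 (ENSMUSG00000005397) had values of 3134, 3788, 3033, 3825 and 3611 at 6 months and of 2242, 1850.2, 1212, 2617 and 2461 at 12 months. Its older ovaries varied more, replicate 3 being far the lowest, and the mean went from 3478 ± 371 to 2076 ± 562 (0.579-fold, log2 change -0.79 with SE 0.22, limma adjusted p = 0.026). The Nid1 call was lost in 5 of 15 fits with 1 library left out (limma adjusted p = 0.0527 to 0.062), namely without 12-month control replicate 2 or 3, and likewise without 6-month control replicate 2, 4 or 5, and by edgeR on the 12 libraries whose value of 1 read was clear of 1 (adjusted p = 0.0581).

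The chains shared by many laminins also fell. Lamb1 (ENSMUSG00000002900), one of the beta chains, measured 3893, 3621, 3366, 4154 and 4047 at 6 months and 2309, 2872, 1629, 2863 and 2622 at 12 months (0.633-fold, log2 change -0.66 with SE 0.15, limma adjusted p = 0.0101). Lamc1 (ENSMUSG00000026478), the gamma chain found in most laminins and the one that binds nidogen, measured 2934, 2998, 2757, 3301 and 2754 at 6 months and 2004, 2404, 1342, 2234 and 1921 at 12 months (0.661-fold, log2 change -0.60 with SE 0.15, limma adjusted p = 0.0143). For both, 12-month replicate 3 was the lowest library of all 10 untreated ovaries. Lamb2 (ENSMUSG00000052911), the other beta chain, prominent in kidney and nerve-muscle basement membranes, went from 4702 ± 534 (range 3998 to 5274) to 3264 ± 282 (2935 to 3571). Its decline was the smallest of the 6 (0.696-fold, log2 change -0.52 with SE 0.12, limma adjusted p = 0.00784). Its call was lost after a correction of every library for transcript length and GC content (log2 change -0.35, limma adjusted p = 0.0608).

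The alpha chains, which give each laminin its receptor binding and tissue distribution, had lower means at 12 months, with no call. Lama1 (ENSMUSG00000032796), an alpha chain of embryonic and some epithelial basement membranes, measured 3382, 5533, 5526, 4444 and 3563 at 6 months and 3438, 3619.9, 2877, 3529 and 3858 at 12 months (log2 change -0.35 with SE 0.19, limma adjusted p = 0.243). The younger ovaries spread widely, and 2 of them lay within the range of the older ones. Lama4 (ENSMUSG00000019846), a chain of vessel basement membranes, had means of 984 ± 102 and 808 ± 119 (log2 change -0.29 with SE 0.11, limma adjusted p = 0.104). Lama2 (ENSMUSG00000019899), the chain of muscle and peripheral nerve, had 917 ± 225 and 719.7 ± 225 (log2 change -0.38 with SE 0.23, limma adjusted p = 0.31), and Lama5 (ENSMUSG00000015647), a chain of many adult epithelia and vessels, 588 ± 102 and 489 ± 122 (log2 change -0.29 with SE 0.16, limma adjusted p = 0.268). The 95% intervals of these log2 fold changes ran from -0.75 to 0.05 for Lama1, -0.87 to 0.11 for Lama2, -0.53 to -0.05 for Lama4 and -0.63 to 0.05 for Lama5. Whether alpha chains changed less than the others was not tested beyond the ratio of Lama1 to Lamc1 given below.

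**Figure D1:**
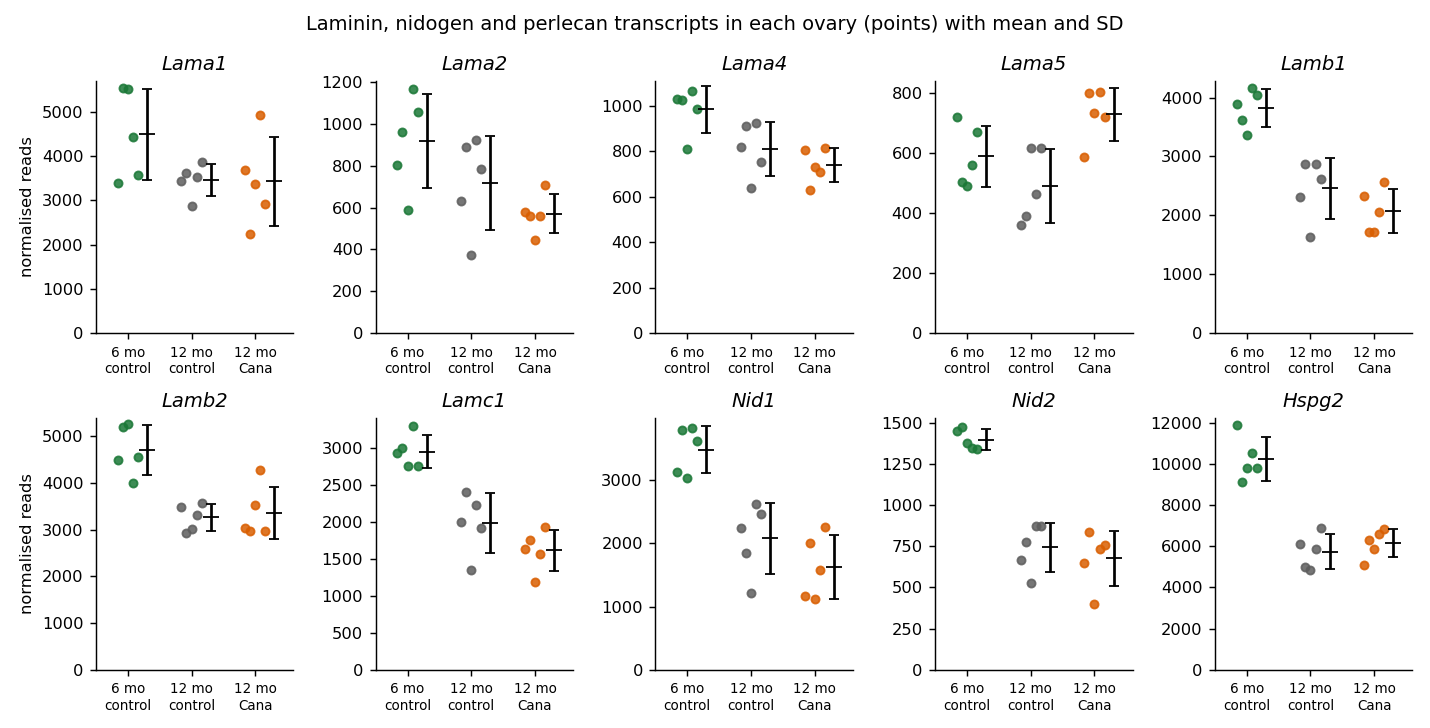
Normalised reads (y axis, from 0) of the 10 genes in each ovary (points) by group (x axis: 6-month control, 12-month control, 12-month canagliflozin), with mean and SD as black bars, n = 5. In Lamb1, Lamb2, Lamc1, Nid1, Nid2 and Hspg2 the green 6-month points lie above all grey 12-month points, and the orange canagliflozin points of Lama5 lie mostly above the grey ones.

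Markers of some cell types that build basement membranes differed between the ages as well. The counts below stand beside 7.01% of all genes tested called lower at 12 months and 5.4% called higher. Of 10 smooth muscle and pericyte markers 5 fell and none rose, and their summed level, 18345 to 23501 at 6 months, was 11449 to 17610.5 at 12 months. Of 10 endothelial markers 1 fell, with sums of 6579 to 7526 and 6286 to 7421, and of 7 stromal fibroblast markers 1 fell, with sums of 14395 to 20189 and 10845 to 17358. Of 9 granulosa markers 2 rose (20083 to 36798 and 31151 to 58988), as did 1 of 4 luteal markers (8301 to 35985 and 24655 to 64675). Of 6 fat cell markers 4 rose and none fell (list median 2.46), although the summed level ran from 2552 to 16547 at 6 months and from 1706 to 9049.8 at 12 months. Of 5 macrophage markers 2 fell (1847 to 3175 and 1069 to 2722). With single libraries left out, the counts of these markers that fell with age ran from 3 to 5 for smooth muscle and pericyte, 0 to 2 for endothelial and 1 to 2 for stromal fibroblast, and the counts that rose from 2 to 3 for granulosa, 0 to 1 for luteal and 2 to 4 for fat cell. The single endothelial call was lost in 9 of 15 fits with 1 library left out (limma adjusted p = 0.0527 to 0.0974) and the single luteal call in 8 of 15 fits with 1 library left out (limma adjusted p = 0.0527 to 0.0985). The part of these cell types in the lower laminin, nidogen and perlecan levels was not tested. Within the 12-month controls, replicate 3 was the lowest library for 8 of the 10 members, and its red cell marker sum was 13452 against 118 to 2987 in the other controls of that age. Without it 5 members were called, Nid1 being lost (log2 change -0.61, limma adjusted p = 0.0548). All 10 transcripts were in the fifth of genes with the longest transcripts, whose median log2 change was 0.06 with age, -0.081 between canagliflozin and 12-month controls and -0.011 between canagliflozin and 6-month controls, where the members' medians were -0.56, -0.14 and -0.70. An RNA extraction is described in the labels for both 12-month groups and not for the 6-month group, so preparation and age cannot be told apart.

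RefSeq's promoter table (build GRCm38.p6) held 6 of the 10 genes, giving 250 bases before to 50 after the transcription start. Shown are the 4 among them whose transcripts fell with age and, beside these, Lama5, whose transcript was not called with age and had its highest mean with canagliflozin. Capitals mark, on either strand, the GC box GGGCGG and the CCAAT box CCAAT; both are common promoter elements, bound by Sp-family factors and by NF-Y. The windows are chr4:137468553-137468852, plus strand for Hspg2, chr13:13437352-13437651, plus strand for Nid1, chr12:31265043-31265342, plus strand for Lamb1, chr9:108479612-108479911, plus strand for Lamb2 and chr2:180225810-180226109, minus strand for Lama5, each written 5′ to 3′ along the gene.
Hspg2: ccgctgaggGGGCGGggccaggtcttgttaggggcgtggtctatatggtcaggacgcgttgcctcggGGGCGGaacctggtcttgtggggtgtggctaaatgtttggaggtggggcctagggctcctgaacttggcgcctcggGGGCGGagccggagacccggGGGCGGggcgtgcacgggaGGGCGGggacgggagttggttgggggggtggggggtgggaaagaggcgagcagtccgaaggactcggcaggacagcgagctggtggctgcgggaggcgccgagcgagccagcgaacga
Nid1: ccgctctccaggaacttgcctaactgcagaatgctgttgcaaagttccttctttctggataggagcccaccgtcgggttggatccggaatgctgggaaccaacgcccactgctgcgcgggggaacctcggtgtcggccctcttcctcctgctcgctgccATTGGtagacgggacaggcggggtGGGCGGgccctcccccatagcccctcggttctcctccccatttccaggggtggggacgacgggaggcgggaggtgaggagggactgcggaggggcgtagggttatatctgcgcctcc
Lamb1: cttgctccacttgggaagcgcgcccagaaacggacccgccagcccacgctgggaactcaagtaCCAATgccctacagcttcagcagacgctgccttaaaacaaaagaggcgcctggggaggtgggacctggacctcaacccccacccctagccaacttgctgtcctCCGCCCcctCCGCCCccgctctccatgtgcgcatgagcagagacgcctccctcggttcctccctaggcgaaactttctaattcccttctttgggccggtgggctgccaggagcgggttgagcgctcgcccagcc
Lamb2: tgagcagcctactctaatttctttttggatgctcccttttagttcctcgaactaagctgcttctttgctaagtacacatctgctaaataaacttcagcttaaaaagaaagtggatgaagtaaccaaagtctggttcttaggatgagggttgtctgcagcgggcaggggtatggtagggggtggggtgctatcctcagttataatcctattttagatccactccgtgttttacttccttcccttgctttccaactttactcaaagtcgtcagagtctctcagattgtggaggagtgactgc
Lama5: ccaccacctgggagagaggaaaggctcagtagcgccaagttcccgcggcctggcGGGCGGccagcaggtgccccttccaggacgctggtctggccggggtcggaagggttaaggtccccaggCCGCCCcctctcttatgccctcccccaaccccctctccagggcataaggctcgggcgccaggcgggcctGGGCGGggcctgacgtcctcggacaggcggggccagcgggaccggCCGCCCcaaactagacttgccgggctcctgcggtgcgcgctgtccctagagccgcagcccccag
A GC box occurred in 5 of the 6 windows and in 35.7% of all 32851 windows of the table, with 5 in Hspg2, 4 in Lama5, 2 in Lamb1 and 1 each in Nid1 and Lama2. A CCAAT box occurred in 2 of the 6, Lamb1 and Nid1, and in 37.4% of all windows. The letters TATAAA, the TATA box, also searched on both strands, were in none of the 6 and in 13.6% of all windows. The Lamb2 window held none of the searched letters, and its base composition was 44.0% G and C against 70.3% for Hspg2. These matches describe the sequence only.

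The second comparison set canagliflozin against untreated ovaries of the same age. No member was called, and over all genes limma called 1 of 17569, or 0.00569%, while 1616 genes had a p under 0.05 before adjustment. Neither edgeR nor DESeq2, run on recovered reads, called a member. Of the 10, Lama5 alone had a limma p under 0.05 before adjustment, a share close to the 9.2% of all genes. A negative log2 change was found for 7 of 10, against 50.4% of all genes, and no member's groups were free of overlap, against 1.05%. Lama5 measured 587, 799, 733, 803 and 721 with canagliflozin and 359.9, 389, 617, 461 and 617 without it. At 6 months it had measured 719, 502, 489, 559.6 and 670.2. Thus 4 of the 5 treated ovaries were above every untreated 12-month ovary, the remaining one (replicate 1) was below the 2 highest of these, so the groups overlapped (1.52-fold, log2 change 0.60 with SE 0.16, limma adjusted p = 0.367, unadjusted p = 0.00172). Over all alternatives its adjusted p ran from 0.114 to 0.718.

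Endothelial and surface epithelium marker lists had positive medians beside Lama5 in the treated ovaries, with no marker called. All 10 endothelial markers had a positive log2 fold change (median 0.25), with sums of 6104 to 9453 with canagliflozin and 6286 to 7421 without. All 7 surface epithelium markers were positive too (median 0.52), with sums of 1156 to 3386 and 1126 to 1965. Of other lists with a positive median, 3 of 3 red cell markers (median 0.91), 3 of 4 luteal markers (median 0.58) and 5 of 9 granulosa markers (median 0.038) were positive. The luteal sums were 34419 to 77928 with canagliflozin and 24655 to 64675 without, and the red cell sums 1026 to 5629 and 118 to 13452. The remaining lists had negative medians. Negative values were found for 4 of 6 fat cell (median -0.50), 6 of 7 oocyte (-0.36) and 5 of 5 macrophage markers (-0.27). The same held for 6 of 7 stromal fibroblast (-0.18), 4 of 6 theca and steroidogenic (-0.058) and 5 of 10 smooth muscle and pericyte markers (-0.025). What part any of these cell types had in the Lama5 values was not tested.

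For the genes that fell with age, the treated ovaries stood near the untreated ones of 12 months. Hspg2 measured 5103, 6318, 5894, 6592 and 6833 with canagliflozin, all within the 12-month control range of 4832 to 6873 (log2 change 0.11, 95% interval -0.14 to 0.36). Nid2 measured 646, 837, 402, 736 and 759, replicate 3 being the lowest of all 15 ovaries (log2 change -0.15, 95% interval -0.52 to 0.21). Nid1 measured 1159.7, 2001, 1125, 1579 and 2262, with replicates 1 and 3 below all untreated ovaries (log2 change -0.36, interval -0.82 to 0.10). For each of the 3 the treated and untreated groups overlapped. Lamb1 measured 2329, 1719, 1716, 2055 and 2566 (log2 change -0.23, interval -0.55 to 0.09) and Lamc1 1632, 1755, 1188, 1571 and 1924 (-0.29, interval -0.60 to 0.03). Lamb2 measured 3042, 2971, 3527, 4282 and 2970.5 (0.03, interval -0.21 to 0.27), with replicate 4 above every 12-month control. The intervals reach fold changes of 0.567 for Nid1 and of 1.28 for Hspg2, so changes up to that size lie within the 95% intervals.

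Among the other alpha chains, Lama1 had 3430.2 ± 1001 with canagliflozin (range 2238 to 4932; log2 change -0.06, interval -0.45 to 0.34). Lama2 had 571 ± 94.0 (-0.28, interval -0.77 to 0.21) and Lama4 737 ± 74.9 (-0.12, interval -0.36 to 0.11). Leaving out 1 library turned the sign of some of the smaller values. The sign reversed for Lama1 without canagliflozin replicate 2, for Nid2 without canagliflozin replicate 3, and for Lamb2 without canagliflozin replicate 4 or 12-month control replicate 2.

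**Figure D2:**
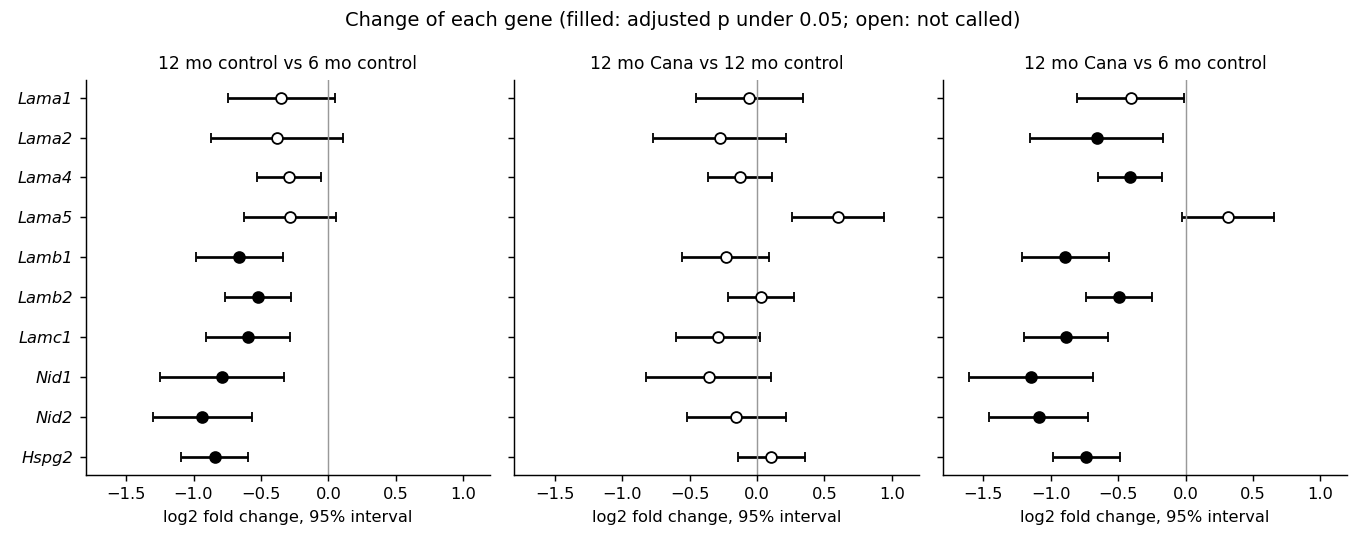
Log2 fold change (x axis) of each gene (y axis) with its 95% interval from limma, in 3 comparisons of 5 against 5 ovaries; filled points have an adjusted p under 0.05. With age all 10 points are negative and 6 are filled, between canagliflozin and untreated ovaries of 12 months none is filled and Lama5 lies apart at 0.60, and between canagliflozin and 6-month ovaries 8 are filled.

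Set against the 6-month controls, which are also the reference of the age comparison, the canagliflozin ovaries had 8 members called lower and none higher, where 14.9% of all genes were called lower. Nid1 stood at 0.452 times the 6-month level (log2 change -1.15 with SE 0.22, limma adjusted p = 0.00133) and Nid2 at 0.470 times (log2 change -1.09 with SE 0.17, limma adjusted p = 0.000403). Hspg2 stood at 0.600 times, Lamb1 at 0.539, Lamc1 at 0.542 and Lamb2 at 0.711 times (limma adjusted p = 0.000407, 0.000655, 0.000553 and 0.00503). Of these 6, the treated and young ovaries did not overlap in 5, the exception being Lamb2 through canagliflozin replicate 4. That kind of separation, with the treated group lower, was found for 10.4% of genes. Among alpha chains Lama4 fell (log2 change -0.42 with SE 0.11, limma adjusted p = 0.012), as did Lama2 (log2 change -0.66 with SE 0.23, limma adjusted p = 0.044). The Lama4 call was lost by edgeR on those 12 libraries (adjusted p = 0.0505), and the Lama2 call in 10 of 15 fits with 1 library left out (limma adjusted p = 0.0517 to 0.106). These were the fits without canagliflozin replicate 1, 2, 3 or 4, and likewise without 12-month control replicate 1 or 5, and likewise without 6-month control replicate 1, 2, 4 or 5. It was also lost with no filter on low values and by edgeR on those 12 libraries (adjusted p = 0.0559 and 0.0932). Lama1 was not called (log2 change -0.41 with SE 0.19, limma adjusted p = 0.116) but was without canagliflozin replicate 4 (limma adjusted p = 0.0316). Lama5 alone had a positive value (log2 change 0.32 with SE 0.16, limma adjusted p = 0.151), the other 9 being negative beside 49.2% of all genes. In this comparison 6 of 10 smooth muscle and pericyte markers and 2 of 7 stromal fibroblast markers fell, with sums of 11101 to 20006 and 10082 to 15529.9 with canagliflozin, while of 10 endothelial markers 3 rose and 1 fell. The endothelial fall was lost in 12 of 15 fits with 1 library left out (limma adjusted p = 0.0529 to 0.117). Of 6 fat cell markers 4 rose and 1 fell, of 5 macrophage markers 2 fell, and 2 of 9 granulosa, 1 of 4 luteal and 1 of 7 surface epithelium markers rose. With single libraries left out, 5 to 7 smooth muscle and pericyte, 1 to 3 stromal fibroblast and 2 macrophage markers fell, and 2 to 4 fat cell markers rose. In this comparison 13.5% of all genes were called higher. The part of these cell types was not tested.

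Ratios of chains within a library hardly depend on its size factor. Of 4 ratios in 3 comparisons, none passed Benjamini-Hochberg adjustment over the 12 exact two-sided permutation tests. With 5 ovaries per group a single test could not pass alone, because the smallest possible p becomes 0.0952 after adjustment. That none passed therefore does not show that the ratios were equal. The log2 ratio of Lama5 to Lama4 was -0.02 ± 0.31 with canagliflozin, -0.75 ± 0.55 in 12-month controls and -0.75 ± 0.22 in 6-month controls (SD, n = 5). Every treated ovary was above every 6-month one (exact permutation p = 0.00794, the smallest that 5 against 5 can give; adjusted 0.0952), while treated and untreated 12-month ovaries overlapped (exact permutation p = 0.0476, adjusted 0.286). The ratio of Lama1 to Lamc1, an alpha chain to the gamma chain, was 0.58 ± 0.35 at 6 months, 0.83 ± 0.22 at 12 months and 1.06 ± 0.56 with canagliflozin. For age its exact permutation p was 0.214 (adjusted 0.452), so that an unequal change of the pair was not detected with 5 ovaries per group.

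The ratios within the beta chain pair and within the nidogen pair overlapped between groups in every comparison. The log2 ratio of Lamb2 to Lamb1 was 0.30 ± 0.28, 0.43 ± 0.33 and 0.70 ± 0.38 in the 6-month, 12-month and canagliflozin groups, with exact permutation p from 0.0873 to 0.5. That of Nid2 to Nid1 was -1.31 ± 0.17, -1.46 ± 0.23 and -1.25 ± 0.29, with exact permutation p from 0.23 to 0.706. With canagliflozin the log2 ratio of Lamb2 to Lamb1 ran from 0.21 to 1.06.

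**Figure D3:**
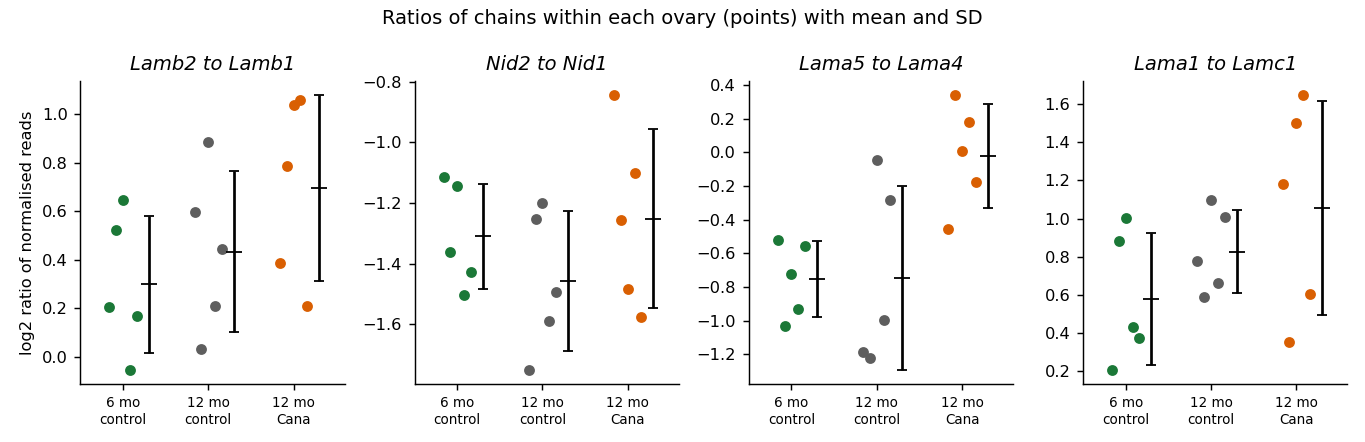
Log2 ratio of normalised reads (y axis, a separate scale per panel) of 4 gene pairs in each ovary (points) by group (x axis), with mean and SD as black bars, n = 5. In the third panel all 5 canagliflozin points of Lama5 to Lama4 lie above the 6-month points, and in the other 3 panels the groups overlap.

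Levels were compared between genes only after division by transcript length, taken as the longest protein-coding transcript of GENCODE M21, which is of another build (GRCm38) than the mm39 named by the submitters. In normalised reads per kilobase, Lamb2 ranked first in all 3 groups, at 835 ± 94.9 at 6 months, 579.8 ± 50.1 at 12 months and 597 ± 101 with canagliflozin. Hspg2 (722 ± 74.6), Lamb1 (659.8 ± 55.6), Nid1 (571 ± 60.9), Lama1 (471 ± 108) and Lamc1 (387 ± 29.4) followed at 6 months, and from Lamb2 to Lamc1 the ranges of mean ± SD of neighbours in that order overlapped. Nid2 (286 ± 12.5), Lama4 (163 ± 16.9), Lama2 (95.4 ± 23.4) and Lama5 (51.6 ± 8.97) were lower, each apart from its neighbours by that measure. At 12 months Lamb1 (425 ± 89.5), Hspg2 (404 ± 59.5), Lama1 (364 ± 38.2), Nid1 (341 ± 92.3) and Lamc1 (259.9 ± 53.1) followed Lamb2, which stood apart, and overlapped in turn. Nid2 (152 ± 30.2) no longer stood apart from Lama4 (134 ± 19.6), nor Lama2 (74.9 ± 23.4) from Lama5 (42.9 ± 10.8). With canagliflozin Hspg2 (433 ± 48.0), Lama1 (360.1 ± 105), Lamb1 (359 ± 64.8), Nid1 (267 ± 82.7) and Lamc1 (212 ± 35.9) again came after Lamb2, apart from it, and overlapped in turn, as did Nid2 (139 ± 34.4) with Lama4 (122 ± 12.4). Lama5 (64.0 ± 7.69) and Lama2 (59.4 ± 9.78) overlapped at the low end in reversed order.

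Summed by chain on the same scale, beta chains were at 1495 ± 47.0 at 6 months, 1005 ± 110.4 at 12 months and 956 ± 105 with canagliflozin. The 4 alpha chains together were at 781 ± 90.5, 615 ± 70.5 and 605 ± 107, and the gamma chain Lamc1 at 387 ± 29.4, 259.9 ± 53.1 and 212 ± 35.9. In every group the beta sum was thus the highest and the gamma chain the lowest of the 3. Lama1 made up 59.8 ± 7.92% of the alpha chain sum at 6 months, 59.2 ± 2.11% at 12 months and 58.6 ± 6.99% with canagliflozin. The share of Lama5 was 6.79 ± 1.97%, 7.13 ± 2.38% and 10.9 ± 2.61%, with overlapping ranges. These sums leave out the chains Lama3 and Lamc3, given below.

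**Figure D4:**
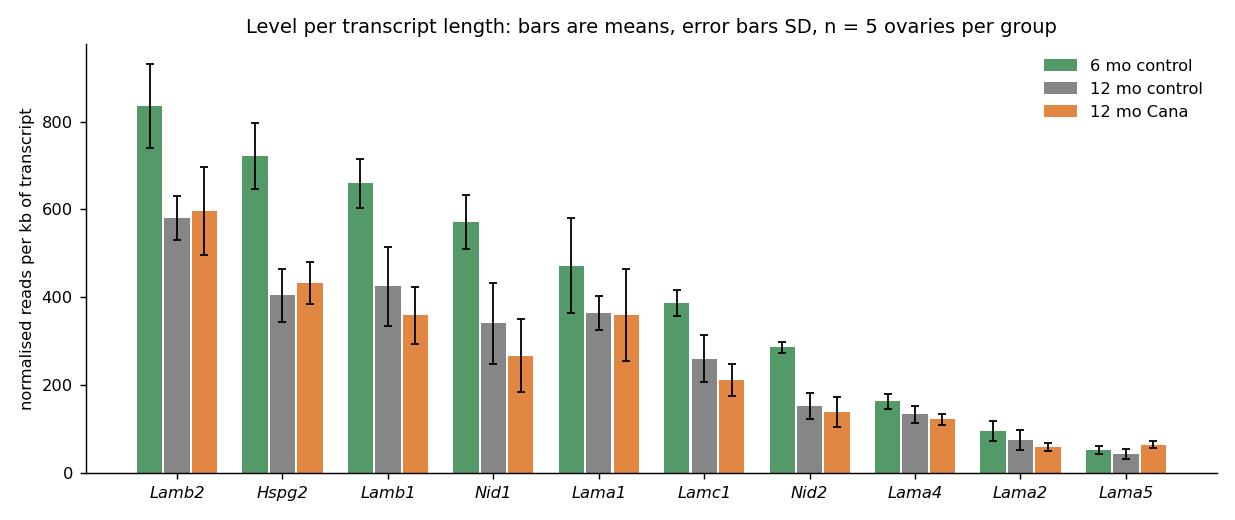
Normalised reads per kilobase of transcript (y axis, from 0) of the 10 genes (x axis, ordered by the 6-month mean); bars are group means and error bars SD, n = 5 ovaries. Lamb2 has the highest bar in each group and Lama4, Lama2 and Lama5 the lowest 3, and the grey and orange bars of Lamb1, Lamb2, Lamc1, both nidogens and Hspg2 are below the green ones.

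The partners of these proteins were examined through 6 lists of basement membrane genes. These lists were chosen with earlier results of these data known. With age, 17 of 67 listed genes fell and 2 rose, and none was called between canagliflozin and 12-month controls. Of all genes tested, 7.01% were called lower with age and 5.4% higher, the shares to set beside the counts of each list below. Among other laminin chains, Lamc3, an alternative gamma chain, fell from 914 ± 365 to 320.4 ± 46.9 (log2 change -1.43, limma adjusted p = 0.00932). Lama3 and Lamb3, chains of the basement membranes of skin and other stratified epithelia, were not called. Of 8 basement membrane collagens 4 fell (list median -0.50). Col4a1 and Col4a2, the chains of the common type IV collagen to which nidogen binds, went from 11786 ± 787 to 7490.2 ± 1734 (log2 change -0.69, limma adjusted p = 0.0138) and from 8921 ± 597 to 4961 ± 1267 (log2 change -0.89, limma adjusted p = 0.00441). Col15a1 (log2 change -1.04, limma adjusted p = 0.0351) and Col18a1 (log2 change -0.81, limma adjusted p = 0.0275), collagens of the multiplexin type, were also called. Col15a1 lost its call in 6 of 15 fits with 1 library left out (limma adjusted p = 0.0532 to 0.076), those without 12-month control replicate 2 or 5, and likewise without 6-month control replicate 1, 2, 3 or 4. Col18a1 lost its call in 5 of 15 fits with 1 library left out (limma adjusted p = 0.0539 to 0.0713), those without 12-month control replicate 3 or 4, and likewise without 6-month control replicate 1, 2 or 3. Correction for length and GC content also ended both (limma adjusted p = 0.0609 and 0.0699).

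Of 17 other basement membrane and matricellular proteins 4 fell (list median -0.17). Agrn, encoding agrin, another heparan sulfate proteoglycan that binds laminin, went from 1946 ± 129 to 1369 ± 226 (log2 change -0.52, limma adjusted p = 0.00497). Ntn4, a netrin that binds the laminin gamma chain, went from 746 ± 168 to 406 ± 67.3 (log2 change -0.87, limma adjusted p = 0.00222), and Egflam, encoding the dystroglycan ligand pikachurin, from 1274 ± 225 to 739.5 ± 159 (log2 change -0.79, limma adjusted p = 0.00705). Fbln2, a fibulin that binds nidogen and perlecan, was called (log2 change -0.75, limma adjusted p = 0.0244) but lost the call in 4 of 15 fits with 1 library left out (limma adjusted p = 0.0543 to 0.0623), those without 12-month control replicate 3 or 5, and likewise without 6-month control replicate 3 or 4, and after the same correction (limma adjusted p = 0.0807).

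Of 14 receptors 3 fell and 1 rose (list median -0.18). Dag1, encoding dystroglycan, which anchors laminin and perlecan to the cell, went from 8706 ± 1353 to 5458 ± 897 (log2 change -0.68, limma adjusted p = 0.0101). The laminin-binding integrin chains Itga3 (log2 change -0.44, limma adjusted p = 0.0147) and Itga7 (log2 change -0.59, limma adjusted p = 0.0154) fell, and the collagen-binding Itga2 rose (log2 change 0.84, limma adjusted p = 0.0358). The calls of all 3 integrins were lost after correction for length and GC content (limma adjusted p = 0.0985, 0.0877 and 0.0866), and that of Itga2 also in 6 of 15 fits with 1 library left out (limma adjusted p = 0.0523 to 0.0925), those without 12-month control replicate 2, 3 or 5, and likewise without 6-month control replicate 2, 3 or 4. Of 11 enzymes that build the heparan sulfate chains carried by perlecan and agrin, 5 fell and none rose (list median -0.35). Among them were the polymerase gene Ext2, from 1754 ± 115 to 1253 ± 107 (log2 change -0.49, limma adjusted p = 0.00142), and the sulfotransferase gene Ndst1, from 2599 ± 228 to 1676 ± 248 (log2 change -0.64, limma adjusted p = 0.00459). Extl3 (log2 change -0.38, limma adjusted p = 0.00912) and Xylt2, which starts the chain (log2 change -0.34, limma adjusted p = 0.0131), were also called, the latter not after correction for length and GC content (limma adjusted p = 0.275). The fifth was the sulfotransferase gene Ndst2, named after its values were seen (log2 change -0.35, limma adjusted p = 0.0246; 0.28 after that correction). Its call was also lost in 6 of 15 fits with 1 library left out (limma adjusted p = 0.051 to 0.0665), those without 12-month control replicate 1, 2, 3 or 4, and likewise without 6-month control replicate 2 or 3. Of 13 proteases and inhibitors 1 was called with age, Adamts5, a protease of proteoglycans, which rose from 187 ± 69.1 to 463 ± 223 (log2 change 1.28, limma adjusted p = 0.0227). Its call was lost in 2 of 15 fits with 1 library left out (limma adjusted p = 0.0575 to 0.0594), those without 6-month control replicate 2 or 3, and after the same correction (limma adjusted p = 0.0566). The inhibitor gene Timp2 (log2 change -0.66, limma adjusted p = 0.0529) and the protease genes Mmp14 (log2 change -0.55, limma adjusted p = 0.118) and Mmp2 (log2 change -1.03, limma adjusted p = 0.0597) had negative values that did not pass. Timp2 was called without canagliflozin replicate 3, and likewise without 12-month control replicate 1, and Mmp2 without canagliflozin replicate 3, and likewise without 12-month control replicate 4.

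Between canagliflozin and 6-month ovaries, Lamc3 and 3 of 8 collagens were lower. Among the other basement membrane proteins 4 of 17 were lower and 1 higher, among receptors 1 of 14 lower and 2 higher, among heparan sulfate enzymes 7 of 11 lower and 1 higher, and among proteases and inhibitors 3 of 13 lower and 2 higher. With single libraries left out, the higher counts ran from 1 to 2 for receptors, 0 to 3 for proteases and inhibitors and 0 to 2 for the other basement membrane proteins. Of all genes, 14.9% were called lower there and 13.5% higher. The listed genes called higher were Ext1, Itga1, Itga2, Fras1, Adamts5 and Ctsl. Ext1 and Itga2 kept the call in all 15 fits with 1 library left out (limma adjusted p = 0.00499 to 0.041 and 0.00574 to 0.0355). Itga1 lost it in 4 of these fits, Fras1 in 2, Adamts5 in 2 and Ctsl in 9. Dag1 was at 4228 ± 875 (log2 change -1.05, limma adjusted p = 0.000248), Ndst1 at 1392 ± 243 (log2 change -0.91, limma adjusted p = 0.000176), Col4a2 at 4746 ± 852 (log2 change -0.93, limma adjusted p = 0.00138) and Timp2 at 2640.0 ± 587 (log2 change -1.01, limma adjusted p = 0.00267).

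**Figure D5:**
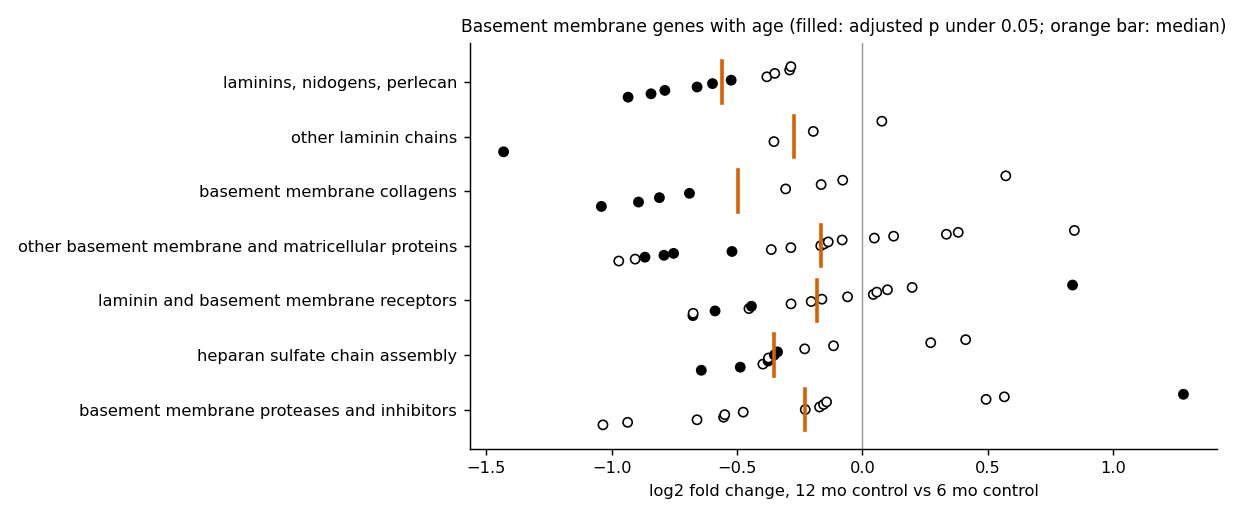
Log2 fold change from 6 to 12 months in untreated ovaries (x axis) of each gene (points) in the laminin, nidogen and perlecan group and in 6 lists of basement membrane genes (y axis); filled points have a limma adjusted p under 0.05 and orange bars are medians. All 10 points of the first row are negative, 4 of 8 collagens are filled on the negative side, and the filled points on the positive side are Itga2 and Adamts5.

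Among all other genes tested, those whose log2 level over the 15 libraries was most like the mean standardised level of the 10 members were Clic4, Dchs1, Prr12, Tbc1d16 and Setd1b. Pearson's r was 0.98, 0.97, 0.97, 0.96 and 0.96, and after centring each gene on its group means 0.93, 0.88, 0.82, 0.80 and 0.79. These values describe the highest ranks among all genes tested, so no p is given, and the libraries of a group share age and treatment. The members did not all follow their own mean. Their r was highest for Lamb1 (0.95) and lowest for Lama5 (-0.10), with Lama1 at 0.60 and Lamb2 at 0.79. Each member is itself part of that mean, which raises its r, so these values cannot be set beside those of the other genes. After centring on group means, r was 0.84 for Lamb1, -0.09 for Lama5, 0.34 for Lama1 and 0.20 for Lamb2. Clic4 encodes an intracellular chloride channel protein and Dchs1 a large cadherin. Both were lower at 12 than at 6 months (log2 change -0.44 and -0.92, limma adjusted p = 0.00584 and 0.00161).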

How the data were processed

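Polyadenylated RNA of whole ovaries was sequenced in 15 libraries, 5 per group, with a directional kit, per the labels' protocols. Values of the deposited table are a signal, namely reads per gene that the authors divided by 1 size factor for each library. At least 99.9878% of a library's values were whole multiples of 1 step within 0.1 of a read, and this gave the reads back. The step lay clear of 1 in 12 libraries and near 1 in the other 3, namely canagliflozin replicates 4 and 5 and replicate 5 of the 6-month controls. The submitters' processing notes name Partek 11.0 and mm39, with the aligner, counter, annotation, strand setting and normalization method not given in the sources used here. Exons of Lama2, Nid1 and Nid2 overlap with a gene on the opposite strand in GENCODE M21 (Gm48084, Gm48682 and Rtraf), so reads may be mixed if strand was not used. The labels state a far lower read depth than was recovered, which was not resolved. Libraries of a group differed by more than counting noise, and each was 1 replicate.

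Since the signal is not a count, limma 3.58.1 in R 4.3.3, with trend and robust variance, was used, and edgeR, planned for the case of raw counts, was an alternative. The limma model was fitted to log2(value + 1) of all 15 libraries for the 17569 genes that reached 10 in 5 or more libraries (7087 did not), and a call is a Benjamini-Hochberg adjusted p under 0.05 over all of them. Ratios of chains were tested by exact two-sided permutation over 252 arrangements, adjusted over 12 tests. The fit was also run on simulated data, whose outcome is not given here, and no result above rests on it. Alternatives were pseudocounts of 0.5 and 5, no filter or a mean of at least 50, edgeR 4.0.16 and DESeq2 1.42.0 on recovered reads, the compared groups alone, a replicate block, a length and GC correction, and each library left out. A further fit, edgeR on the 12 libraries above, was chosen after seeing the data. The members and the lists of basement membrane and cell type genes were chosen with earlier results of these data known. From each basement membrane list the genes called in at least 1 comparison are named, at most 4 per list by smallest p. Named outside that rule, after their values were seen, were Ndst2, Ext1, Itga1, Fras1 and Ctsl. Lama3 and Lamb3 are named to say that they were not called. Promoters came from RefSeq's table by symbol, with no entry for Lama1, Lama4, Lamc1 and Nid2.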

Additional observations from a re-analysis of the deposited data

How the results depend on the processing

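The number of members called stayed within 1.5 times under every alternative: with age 5 or 6 against 6, between canagliflozin and 12-month controls 0 throughout, and between canagliflozin and 6-month controls 6 to 8 against 8. Counts over all genes moved by over 1.5 times for canagliflozin against 12-month controls and in neither other comparison. There limma called 1 gene, and 2 with no filter, 9 by edgeR with TMM on recovered reads, 63 by DESeq2, 23 by edgeR on 12 libraries, 0 with only the 2 groups compared, 0 after correction for length and GC content, 3 with the replicate block, and 0 to 37 without single libraries, 37 being without canagliflozin replicate 5. The cause of these moves was not tested. The replicate block gave 2126 calls with age against 2179 and 4912 against 4982 between canagliflozin and 6-month controls, and it changed no count of members. Same-numbered libraries correlated at -0.30 to 0.25, and the best match bore the same number in 6 of 30 cases, so numbers were not taken as pairs. Values that reversed were near 0. For canagliflozin against 12-month controls, log2 fold changes without single libraries ran from -0.20 to 0.085 for Lama1, -0.061 to 0.071 for Lamb2 and -0.27 to 0.022 for Nid2, and Lamb2 was at -0.027 by edgeR on 12 libraries. The difference in the log2 ratio of Lama5 to Lama4 with age ran from -0.17 to 0.12 and that of Nid2 to Nid1 between canagliflozin and 6-month controls from -0.044 to 0.14. With all libraries, as with 1 left out, the smallest exact permutation p is too large for a single ratio to pass adjustment over 12 tests. The fits with 1 library left out thus bear on the size of a ratio and not on its call. Depth was no limit for the members, of which the lowest library held 377 reads of a gene; 5 ovaries per group limit what can be seen.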

Other observations

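Cell type markers not described beside a result above were as follows. Of 6 theca and steroidogenic markers none was called in any comparison, and their summed level ran from 167959.7 to 237971 at 6 months, 156734 to 232496 at 12 months and 106746 to 296564 with canagliflozin. Among 7 oocyte markers tested, 1 was lower with canagliflozin than at 6 months and none was called in the other comparisons. Surface epithelium markers numbered 7, of which 1 rose with age, a call lost in 10 of 15 fits with 1 library left out (limma adjusted p = 0.0504 to 0.108). With canagliflozin the fat cell sums were 2513 to 15085 and the macrophage sums 1257 to 2002. None of the 3 red cell markers was called, and their sums were 567 to 1729.6, 118 to 13452 and 1026 to 5629.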
